A study of Rattus norvegicus with 6 samples.

Results

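Interleukins, chemokines and their receptors were followed in testis cell cultures of rats of 2 ages. The genes were chosen by name alone: symbols that start with Il and a digit, or with Cxcl, Ccl, Cxcr or Ccr and a digit, with the exception of Cxcl12, which was not analysed here. The choice found 110 of the 14506 genes measured. They comprised 31 interleukin ligands, 4 soluble antagonists or binding proteins, 30 interleukin receptor chains, 11 CXC chemokines, 19 CC chemokines and 15 chemokine receptors.

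The cultures were labelled as Sertoli cells, the somatic cells of the seminiferous tubule, and were prepared from rats of 9 days (3 arrays, in the neonatal phase when these cells still divide, per the labels) or of 21 days (3 arrays, at puberty, when division has ended). GEO files the series under binding by array, while its labels describe expression. The labels give both ages the same handling, digestion of the testes and culture in DMEM/F12 with 10% fetal bovine serum, with changes of medium as the means of purification. They name no strain, genotype or drug and number the arrays of each age 1 to 3 without tying them to separate animals, and p-values then rest on a spread between arrays that may be technical. Total RNA was measured on Affymetrix arrays as log2 signals of probe sets, which have no zero, so a signal serves to compare arrays and is no amount of transcript. Values of single arrays are given below in the order of replicates 1, 2 and 3, the 9-day-old (younger) arrays first, and differences are 21 days minus 9 days on the log2 scale with the SE of limma, a linear model fitted to all genes, at n = 3 an age.

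Interleukins and chemokines are small secreted proteins through which cells call in and instruct leukocytes. The IL-1 family binds receptors that share a cytoplasmic domain with the Toll-like receptors and drive NF-kappaB, many other interleukins act through Janus kinases and STAT factors, and chemokines act through G protein-coupled receptors. In the testis, Sertoli cells are a known source of interleukin-1 alpha and interleukin-6, and these cytokines are known to act on the junctions of the tubule and on dividing germ cells.

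The markers of Sertoli cells gave mixed signals. Of 18 measured, 8 lay below the median of all gene means (4.66), and the mean over the list was 5.07, 5.23 and 5.15 in the younger arrays and 5.24, 5.55 and 6.06 in the older ones. At 21 days 13 of the 18 were higher and 5 lower, with a largest difference of 3.59. A fold of at least 2 was seen for 3 (16.7%, against 0.427% of all genes). No overlap between the ages was found for 4 (22.2%, against 5.72%), and all of these were higher at 21 days. The median difference over the list was 0.22. Signals of Amh ran from 3.07 to 3.49 and those of Fshr from 2.43 to 3.48, whereas Wt1 ran from 6.94 to 7.44 and Gata4 from 7.56 to 8.21. These 4 were named after their values were seen. The marker with the difference of 3.59 is not among them, so they do not stand for the whole list. Macrophage markers were mostly low, with a list mean of 3.14 to 3.20 over the 6 arrays. Of 21 markers, 13 lay below the lower quartile of all gene means, and 7 were higher and 14 lower at 21 days. Cd14, at 7.38 to 8.21 the only one above the upper quartile, had the largest rise, 0.24 ± 0.21 (SE), with all 3 pairs higher. Fcgr1a had the largest fall, -0.22 ± 0.10, with all 3 pairs lower, at signals of 2.43 to 2.87. Both were named after their values were seen. Lymphocyte markers had list means of 2.72 to 2.82, with 13 of 16 (81%, background 46.5%) higher at 21 days and a median difference of 0.059. Of the 16, 11 lay below the lower quartile of all gene means, where no detection can be claimed. Smooth muscle markers had list means of 9.54 and 9.38 in the younger and older arrays numbered 3 and of 7.55 to 8.28 in the other arrays. The arrays numbered 3 stood apart in these markers at both ages. Fibroblast markers had list means of 8.41 to 8.81 over the 6 arrays. Of these markers, 6 of 9 lay above the upper quartile of all gene means, and 2 were higher and 7 lower at 21 days. In bulk RNA, fewer cells of a type and less RNA per cell cannot be told apart. The part of any of these markers in the results that follow was not tested.

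No gene of these families passed the test of age. In limma, with Benjamini-Hochberg adjustment over all 14506 genes, 0 of the 110 had an adjusted p under 0.05 and each had an adjusted p of 1. No gene of the whole table passed either, a background of 0%. With the replicate number as a block the count was again 0 of 110, with a lowest adjusted p of 0.347 among them, and the background was 0%. Before adjustment, 11 of the 110 (10.0%) had a p under 0.05, against a background of 2.97%. Of these, 6 were higher at 21 days (background 1.45%) and 5 lower (background 1.52%). With the block there were 18 (16.4%), against a background of 7.73%, of which 12 were higher (background 3.29%) and 6 lower (background 4.45%).

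The genes with the largest differences belonged to different roles. A fold of at least 2 between the age means was seen for 3 of the 110, against a background of 0.427% of all genes. Il1rn and Cxcl13 were higher (background 0.352%) and Il1rl1 lower (background 0.0758%). No overlap between the younger and older arrays was found for 9 of the 110 (8.18%), against a background of 5.72%. Il1rn, Cxcl13, Il17re, Il34 and Il21r were the 5 higher ones (background 2.74%), and Ccl6, Il2ra, Il18r1 and Il5 the 4 lower ones (background 2.98%). Counting differences of any size, 60 of the 110 were higher (background 46.5%), 49 lower (background 53.3%) and 1, Il2rb, without any difference, with a median difference of 0.024 against -0.0093 over all genes measured. With each array centred on its own median the median of the 110 was -0.0016, so its sign depended on the scaling.

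**Figure D1:**
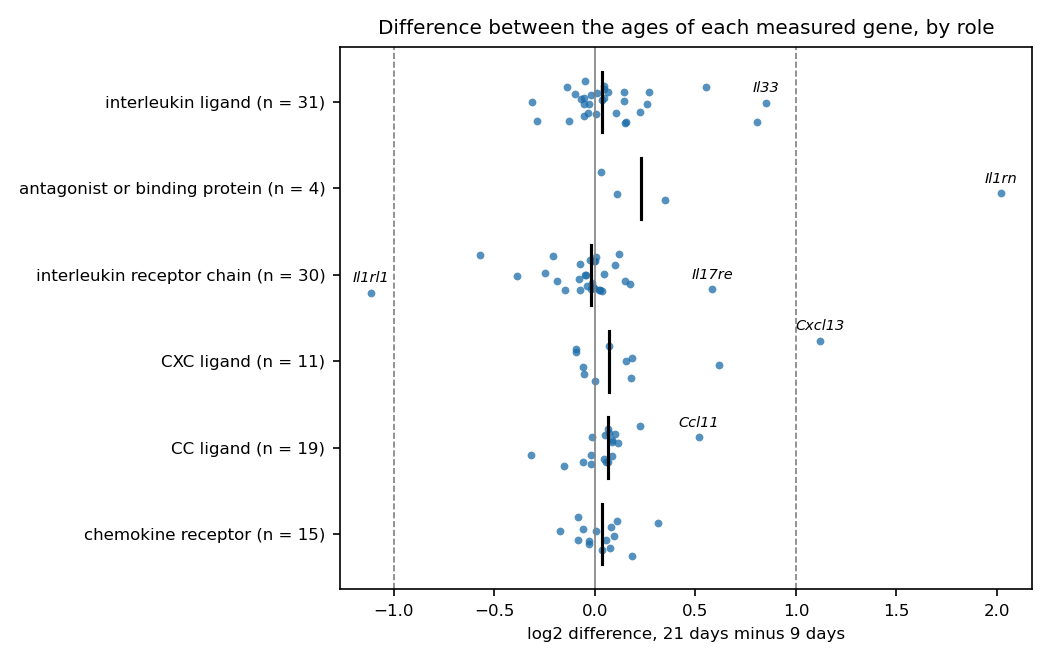
Log2 difference between the ages (21 days minus 9 days) of each of the 110 genes, 1 point per gene, in rows by role with a small vertical scatter for visibility; black bars are the medians of each role and dashed lines mark a fold of 2. Most points lie near 0, and Il1rn (2.02), Cxcl13 (1.12) and Il1rl1 (-1.11) lie beyond the dashed lines.

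Among the 31 interleukin ligands, Il33 and Il1a of the IL-1 family had the largest differences. Il1a, which encodes interleukin-1 alpha, had log2 signals of 5.49, 6.15 and 5.70 (younger) and 6.76, 6.03 and 6.98 (older). The 21-day-old arrays numbered 1 and 3 stood above all younger arrays, and the one numbered 2 lay within their range. The difference was 0.81 ± 0.29 (SE), a 1.75-fold difference, and the pair numbered 2 went the other way, by -0.12. Il33, a nuclear cytokine released by damaged cells, had signals of 5.22, 5.65 and 5.65 (younger) and 5.65, 6.45 and 6.97 (older). Each older array exceeded the younger array of its number, and the ages touched because 1 array of each gave the same value. The difference was 0.85 ± 0.34 (SE), or 0.54 without 21-day-old replicate 3.

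Il1b and Il18 of the same family were low. Il1b, the secreted interleukin-1 beta, lay between 3.25 and 3.53 in all arrays, with a difference of 0.15 ± 0.07 (SE). Il18, a related ligand that acts on lymphocytes, lay between 2.14 and 2.37, below the lower quartiles of the arrays (2.61 to 2.65). At such signals no detection can be claimed, and a small difference is no evidence of equal expression.

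Il1rn, the antagonist that occupies the interleukin-1 receptor without activating it, showed the largest difference of all 110 genes. Its log2 signals were 6.30, 5.81 and 4.62 (younger) and 8.0, 7.21 and 7.57 (older). Every older array was above every younger one. The difference was 2.02 ± 0.46 (SE, n = 3 each), a 4.05-fold difference, and it was 1.70, 1.40 and 2.95 in the pairs numbered 1, 2 and 3. Without 9-day-old replicate 3, the lowest of the arrays, it was 1.54. The adjusted p was 1 in limma and 0.385 with the replicate number as a block. Among the other soluble inhibitors, Il18bp, which binds interleukin-18, was named after its values were seen and had signals of 3.97, 3.97 and 4.34 (younger) and 4.17, 4.17 and 4.98 (older). Its difference of 0.35 ± 0.25 shrank to 0.078 without 21-day-old replicate 3.

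Il1rl1, Il1rl2 and Il1r2, receptors of the same family, were lower at 21 days in every pair. Il1rl1, which encodes ST2, the receptor of interleukin-33, had signals of 7.61, 6.93 and 8.40 (younger) and 7.0, 6.02 and 6.59 (older). Each older array was below the younger array of its number, with pair differences of -0.61, -0.91 and -1.81, although the ages overlapped. The difference was -1.11 ± 0.43 (SE), or 0.463 of the younger level, and -0.74 without 9-day-old replicate 3. Il1rl2, the receptor of the interleukin-36 ligands, had signals of 8.48, 8.05 and 9.81 (younger) and 8.32, 7.47 and 8.85 (older). It was highest in the array numbered 3 at both ages, and its difference of -0.57 ± 0.55 was -0.054 without 9-day-old replicate 3. Smooth muscle markers were also highest in the arrays numbered 3, as was Il1rl1 among the younger arrays alone, and their part in these values was not tested.

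Il1r2, a decoy receptor that binds interleukin-1 without signalling, differed less. Its signals were 4.87, 4.67 and 4.86 (younger) and 4.67, 4.20 and 4.35 (older), so that the ages met at the edge of their ranges. The difference was -0.39 ± 0.14 (SE). The chains that carry the interleukin-1 signal had small differences. Il1r1, the signalling receptor, lay between 8.65 and 8.82 with a difference of -0.074 ± 0.064. Il1rap, its accessory protein, differed by -0.073 ± 0.23, or by 0.11 without 21-day-old replicate 2. Il18r1, a chain of the interleukin-18 receptor, did not overlap between the ages, with a difference of -0.19 ± 0.07 at signals of 2.70 to 2.99. No detection can be claimed at these signals.

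The 18 genes of the IL-1 family had no common direction: 9 were higher and 9 lower at 21 days, and their median difference was -0.0065. This grouping was made after the values had been seen, as were the gp130, IL-17 and common gamma chain groupings below. At an unadjusted p under 0.05 the IL-1 family held 6 of the 11 genes counted above, 33.3% of the family against 2.97% of all genes. That share cannot be read as support because the values were known when the family was set apart. The 6 were Il1rn, Il1a, Il33, Il1rl1, Il1r2 and Il18r1. The agonist Il1a, the alarmin Il33 and the antagonist Il1rn were higher at 21 days, and the receptors Il1rl1, Il1r2 and Il18r1 lower. None of them passed the adjusted threshold.

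**Figure D2:**
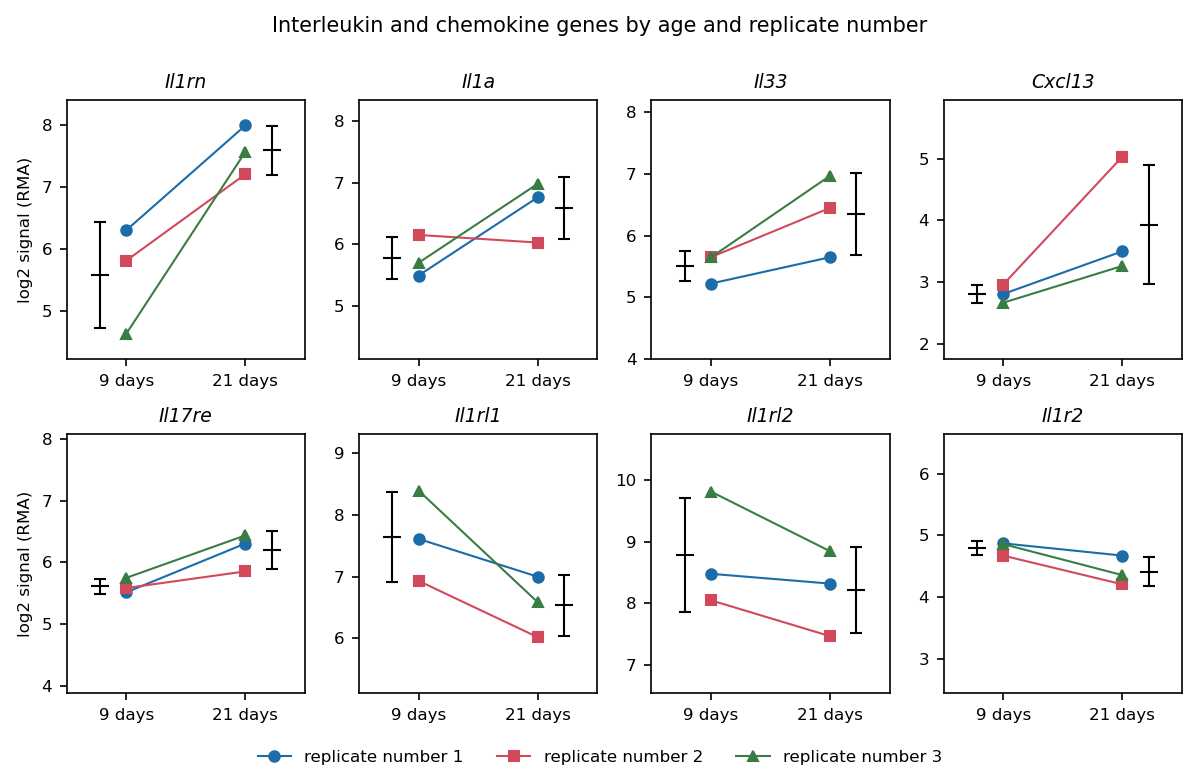
Log2 signal of 8 genes in each array at 9 and 21 days; lines join arrays of the same replicate number, and black bars beside them are the mean ± SD of the 3 arrays of an age. All panels span the same height of 4.2 log2 units; every 21-day-old array lies above every 9-day-old array for Il1rn, Cxcl13 and Il17re, and all 3 lines slope down for Il1rl1, Il1rl2 and Il1r2.

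Of 6 genes around gp130, the signalling chain shared by interleukin-6 and its relatives, 3 were higher and 3 lower at 21 days. Il6, the best known of the ligands, had signals of 4.32, 5.56 and 3.85 (younger) and 5.07, 5.69 and 4.63 (older). The array numbered 2 was the highest and the one numbered 3 the lowest at both ages, and each older array exceeded the younger one of its number. The difference was 0.55 ± 0.50 (SE), or 0.55 ± 0.15 with the block, with adjusted p of 1 and 0.515 in limma. Without 9-day-old replicate 3 it was 0.19. Il11, which acts through the same chain, differed by 0.27 ± 0.23, or by 0.063 without 21-day-old replicate 2. Within its pairs it was higher throughout, by 0.24, 0.34 and 0.23, with an SE of 0.070 with the block. Il6st, which encodes gp130 itself, ran from 9.04 to 9.76 and differed by -0.15 ± 0.19. The ligand-binding chains Il6r (0.15 ± 0.14) and Il11ra1 (-0.0035 ± 0.12) had small differences. Il27ra, the receptor of interleukin-27, differed by -0.25 ± 0.15, most of it in the pair numbered 1 (-0.64), and by -0.14 without 21-day-old replicate 1.

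Of the 6 genes of the IL-17 family, Il17re had no overlap between the ages. Il17re pairs with Il17ra to bind interleukin-17C, and its signals were 5.51, 5.58 and 5.75 (younger) and 6.30, 5.85 and 6.44 (older). All older arrays were above all younger ones. The difference was 0.58 ± 0.17 (SE), a 1.5-fold difference, and it stayed between 0.46 and 0.76 when any single array was left out. Il17ra, the partner chain, ran from 5.89 to 6.02 and differed by -0.0063 ± 0.066. The ligand Il17b had signals of 5.48, 5.42 and 6.31 (younger) and 5.17, 5.01 and 6.09 (older). It was highest in the arrays numbered 3, as were the smooth muscle markers, and its difference of -0.31 ± 0.37 was -0.025 without 9-day-old replicate 3. All 3 pairs were lower, with differences of -0.30, -0.41 and -0.22 and an SE of 0.074 with the block.

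Genes of the common gamma chain and interleukin-13 systems, which serve lymphocytes, were mostly low, with 14 of 16 below the median of all gene means. Of the 16, 7 were higher in the older arrays, 8 lower and 1 equal, and the median difference was -0.0073. Il2ra, a chain of the interleukin-2 receptor, did not overlap between the ages, with a difference of -0.21 ± 0.08 (SE). Its signals were 2.65 to 3.05, at which no detection can be claimed. Il21r, the interleukin-21 receptor, also did not overlap, at 3.00 to 3.43, with a difference of 0.17 ± 0.09, or 0.094 without 21-day-old replicate 2. The ligand Il15, which supports natural killer cells, differed by -0.29 ± 0.21, or by -0.076 without 9-day-old replicate 3, and Il7, a lymphocyte growth factor, by 0.013 ± 0.056.

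The shared chains of type 2 and IL-10 receptors were above the upper quartile of all gene means (6.62). Il4r ran from 7.22 to 8.31 and differed by -0.023 ± 0.28 (SE), with both extremes among the older arrays. Il13ra1, its partner for interleukin-13, ran from 8.37 to 8.55 and differed by -0.078 ± 0.068. A further probe set that is named for both Il13ra1 and its pseudogene was left out. Il10rb, the chain common to interleukin-10 and its relatives, ran from 8.39 to 8.69 and differed by 0.12 ± 0.08. Il10 itself lay between 1.95 and 2.17, near the bottom of the arrays.

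Il34 and Il5 completed the interleukins without overlap. Il34, another ligand of the macrophage growth factor receptor, had signals of 2.61, 2.60 and 2.73 (younger) and 2.91, 3.03 and 2.78 (older), a difference of 0.26 ± 0.09 (SE). Il5, the eosinophil growth factor, lay between 2.20 and 2.44 and differed by -0.13 ± 0.07. Both had signals at which no detection can be claimed.

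The CXC chemokines varied widely between arrays. Of 11 measured, 5 (45.5%) spanned at least 1 log2 unit over the 6 arrays, as did 16 of all 110 genes (14.5%), against a background of 8.36%. For Cxcl1, Cxcl2, Cxcl3 and Cxcl6, the ligands that draw neutrophils, the array numbered 2 was the highest and the one numbered 3 the lowest at both ages. In all, 11 of the 110 genes showed this order, 6 of them CXC chemokines, against a background of 7.36%, so over the 110 the share (10.0%) was near that of other genes. The order was noticed in these values and is a description of the arrays.

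Cxcl2 showed the widest spread over arrays of the 110 genes. Its log2 signals were 6.26, 8.41 and 5.0 (younger) and 6.72, 7.71 and 5.80 (older), highest in the arrays numbered 2. Replicate number held 91.4% of its variation between arrays and age 0.662%. The difference between the ages was 0.19 ± 0.94 (SE), and it ran from -0.59 to 1.11 when single arrays were left out. Cxcl6, a close relative, had signals of 11.02, 11.78 and 10.44 (younger) and 11.11, 11.72 and 10.14 (older), with 97.6% of the variation held by replicate number. Its difference of -0.093 ± 0.50 turned to 0.33 without 21-day-old replicate 3. Cxcl1 ran from 10.28 to 11.13 with a difference of -0.054 ± 0.23, which turned to 0.20 without 9-day-old replicate 2.

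Cxcl3 followed the order of its relatives and was higher at 21 days within each pair. Its signals were 3.13, 3.71 and 2.55 (younger) and 3.84, 4.20 and 3.21 (older). At the lower of these signals no detection can be claimed. Every older array exceeded the younger array of its number, by 0.70, 0.48 and 0.66. The difference was 0.62 ± 0.37 (SE) without and 0.62 ± 0.08 with the replicate number as a block, with adjusted p of 1 and 0.347 in limma, the latter the lowest of the 110 genes. Without 9-day-old replicate 3 it was 0.32.

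**Figure D3:**
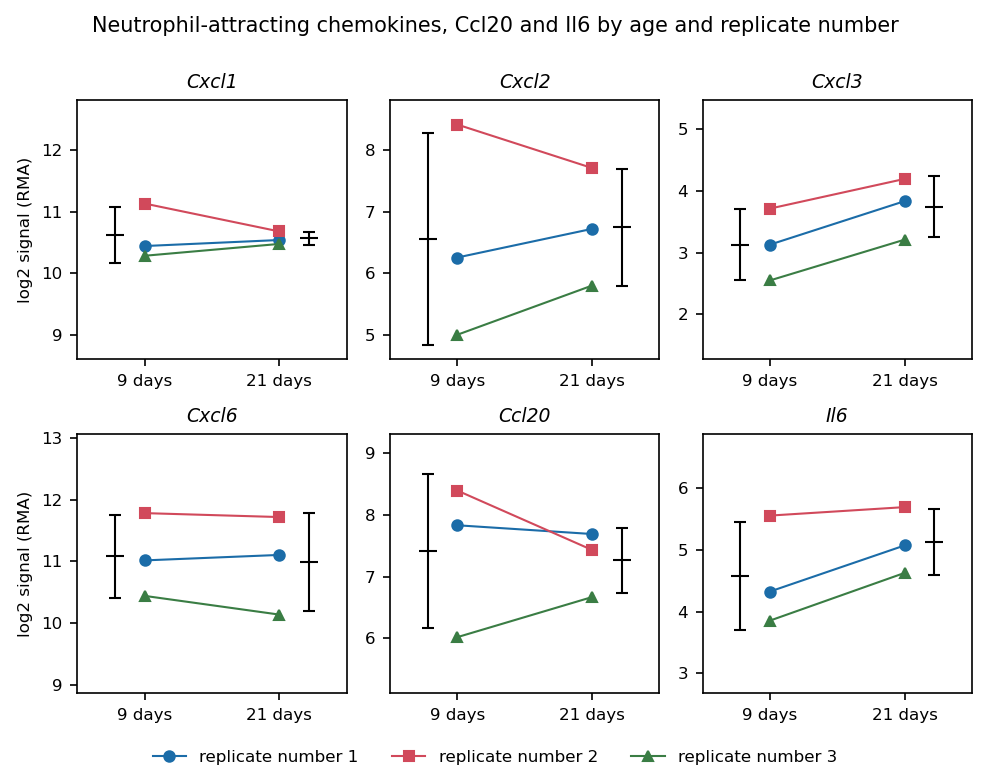
Log2 signal of Cxcl1, Cxcl2, Cxcl3, Cxcl6, Ccl20 and Il6 in each array at 9 and 21 days, lines joining arrays of the same replicate number, black bars the mean ± SD of 3 arrays; all panels span 4.2 log2 units. The array numbered 3 is the lowest at both ages in all 6 panels, and for Cxcl2 the spread between numbers (5.0 to 8.41 at 9 days) far exceeds the difference between the ages (0.19).

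The promoter windows of the neutrophil chemokines Cxcl1, Cxcl2 and Cxcl6 and of Il6 are shown as examples of genes with this order of arrays, and that of Il1rn because its difference was the largest. No window of Cxcl3 is shown. They are RefSeq windows of assembly GRCr8, from 250 bases before to 50 after the annotated start of the gene, written 5′ to 3′ on the strand of the gene. Capitals mark matches, on either strand and joined where they overlap, to the kappaB consensus, the binding motif of NF-kappaB, a factor through which interleukin-1 acts. The windows lie at chr14:17479272-17479571 (Cxcl1), chr14:17467206-17467505 (Cxcl2), chr14:17596368-17596667 (Cxcl6) and chr4:5894526-5894825 (Il6), all on the minus strand, and at chr3:27520072-27520371 (Il1rn) on the plus strand.
Cxcl1: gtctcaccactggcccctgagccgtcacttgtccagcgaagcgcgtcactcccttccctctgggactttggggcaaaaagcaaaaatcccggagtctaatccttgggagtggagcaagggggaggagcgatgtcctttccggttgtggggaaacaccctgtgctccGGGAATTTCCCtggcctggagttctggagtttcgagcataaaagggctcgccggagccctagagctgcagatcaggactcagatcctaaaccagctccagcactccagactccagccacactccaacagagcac
Cxcl2: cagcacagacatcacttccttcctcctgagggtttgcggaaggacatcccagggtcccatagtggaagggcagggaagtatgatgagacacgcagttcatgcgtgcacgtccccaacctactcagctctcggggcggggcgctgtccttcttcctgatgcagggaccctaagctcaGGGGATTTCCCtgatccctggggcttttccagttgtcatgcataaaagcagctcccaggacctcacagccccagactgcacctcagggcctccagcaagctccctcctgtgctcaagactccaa
Cxcl6: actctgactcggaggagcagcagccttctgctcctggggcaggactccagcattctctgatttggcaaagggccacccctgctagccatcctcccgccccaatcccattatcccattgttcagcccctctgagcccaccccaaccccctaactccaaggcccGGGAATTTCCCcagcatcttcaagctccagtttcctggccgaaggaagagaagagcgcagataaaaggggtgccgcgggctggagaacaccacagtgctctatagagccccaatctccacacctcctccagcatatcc
Il6: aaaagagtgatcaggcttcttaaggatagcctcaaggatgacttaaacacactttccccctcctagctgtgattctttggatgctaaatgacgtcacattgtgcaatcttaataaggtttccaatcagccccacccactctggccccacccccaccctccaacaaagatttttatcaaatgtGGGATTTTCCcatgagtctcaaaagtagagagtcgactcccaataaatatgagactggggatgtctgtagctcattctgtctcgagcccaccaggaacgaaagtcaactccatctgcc
Il1rn: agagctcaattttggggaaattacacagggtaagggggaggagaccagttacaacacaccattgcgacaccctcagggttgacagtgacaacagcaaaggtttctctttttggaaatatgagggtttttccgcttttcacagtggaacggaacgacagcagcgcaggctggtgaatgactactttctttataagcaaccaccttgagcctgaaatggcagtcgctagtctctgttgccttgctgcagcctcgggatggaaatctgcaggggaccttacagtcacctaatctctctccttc

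The capitals begin 84 bases before the start in Cxcl1, 74 in Cxcl2, 88 in Cxcl6 and 68 in Il6. Cxcl1 and Cxcl6 carry the same 11 letters, GGGAATTTCCC, Cxcl2 carries GGGGATTTCCC and Il6 carries GGGATTTTCC. The window of Il1rn holds no match, which says only that these letters are not in it. Of the 110 genes, 84 have at least 1 window, 87 windows in all. The kappaB consensus was found in 18 of the 87 (20.7%), against 7.51% of 33469 windows of the same length. A stricter form of it was found in 4 (4.60%), against 0.362%, and of the 4 matches printed that of Cxcl2 did not meet the stricter form. Of the 11 genes with the order of arrays described, 10 have a window. The consensus was found in 5 of these, the 4 printed and Il6st, and not in the other 5, Cxcl13, Cxcl14, Ccl26, Il18 and Il4. Of these, Cxcl14, Ccl26 and Il4 were named after their values were seen. Other motifs, also searched on both strands, were found in larger shares of the 87 as well: the AP-1 motif TGANTCA in 13.8% against 7.33% of all windows, the STAT motif TTCNNNGAA in 13.8% against 8.87%, the C/EBP motif TTGCNNAA in 17.2% against 10.6% and the TATA motif TATAAA in 23.0% against 14.2%. A match is a description of letters and no site of binding, and windows of related genes can share sequence by descent.

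The remaining CXC chemokines differed in their patterns. Cxcl13, which draws B cells, had signals of 2.81, 2.96 and 2.66 (younger) and 3.50, 5.03 and 3.26 (older). All older arrays were above all younger ones, and the one numbered 2 stood far above the rest. The difference was 1.12 ± 0.47 (SE), a 2.17-fold difference, and 0.57 without 21-day-old replicate 2. The younger signals lay near the lower quartile of all gene means (2.91), where no detection can be claimed, so the fold starts from a low signal. Cxcl16, a membrane-anchored chemokine, ran from 8.85 to 9.81 and differed by 0.15 ± 0.25, or by -0.11 without 9-day-old replicate 3. Cxcl10, a chemokine induced by interferon, lay between 3.49 and 4.25 and differed by -0.0017 ± 0.19, with both its lowest and its highest value at 21 days.

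The CC chemokines Ccl2 and Ccl7, which draw monocytes, had signals above the upper quartile and a small spread. Ccl2 averaged 12.18 ± 0.06 in the younger and 12.23 ± 0.02 in the older arrays (SD, n = 3 each). Ccl7 averaged 11.10 ± 0.08 and 11.14 ± 0.15. Their differences were 0.054 ± 0.062 and 0.049 ± 0.098 (SE), while Cxcl6 at a like height of signal varied by 1.64 between its lowest and highest array.

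Ccl20, the ligand of Ccr6, varied with replicate number. Its signals were 7.84, 8.40 and 6.02 (younger) and 7.69, 7.44 and 6.67 (older), lowest in the arrays numbered 3. Age held 0.935% of its variation and replicate number 81.4%. Its difference of -0.15 ± 0.65 (SE) ran from -0.85 to 0.34 when single arrays were left out. The smooth muscle markers were highest in the arrays in which Ccl20, Cxcl2, Cxcl6 and Il6 were lowest, and their part in these values was not tested.

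Of the CC chemokines, Ccl11 and Ccl6 were those with an unadjusted p under 0.05, 2 of 19 (10.5%, background 2.97%), in opposite directions. Ccl11, known as eotaxin for its draw on eosinophils, had signals of 3.51, 3.28 and 3.37 (younger) and 4.08, 4.13 and 3.50 (older). The older arrays numbered 1 and 2 stood above all younger ones, and the one numbered 3 among them. The difference was 0.52 ± 0.18 (SE). Ccl6, made by myeloid cells, had signals of 3.45, 3.44 and 3.60 (younger) and 3.01, 3.34 and 3.18 (older) without overlap, a difference of -0.32 ± 0.10. Macrophage markers averaged 3.17 ± 0.03 and 3.16 ± 0.01 over their list (SD, n = 3 each) at the same ages. Of these 21 markers, 13 lay below the lower quartile of all gene means. Their part in the values of Ccl6 was not tested. Ccl5, which draws T cells, ran from 3.58 to 3.88 and differed by 0.098 ± 0.090. Over the 19 CC chemokines 13 were higher and 6 lower, with a median difference of 0.063.

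Chemokine receptors had low signals. All 15 had means below the median of all gene means and 10 of them below the lower quartile, and none was without overlap between the ages. Their list mean lay between 2.77 and 2.89 in all arrays. Ccr1, a receptor of several CC chemokines, had signals of 2.97, 2.58 and 2.17 (younger) and 3.20, 2.89 and 2.58 (older), a difference of 0.31 ± 0.25 (SE), or 0.11 without 9-day-old replicate 3. Each older array exceeded the younger one of its number. Ccr2, the receptor of Ccl2, lay between 2.03 and 2.23, and Cxcr2, the receptor of Cxcl1 and its relatives, between 2.16 and 2.25. Cxcr4, a receptor of wide distribution, lay between 2.87 and 3.12 and differed by 0.11 ± 0.07. Over the 15, 9 were higher and 6 lower, with a median difference of 0.034.

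**Figure D4:**
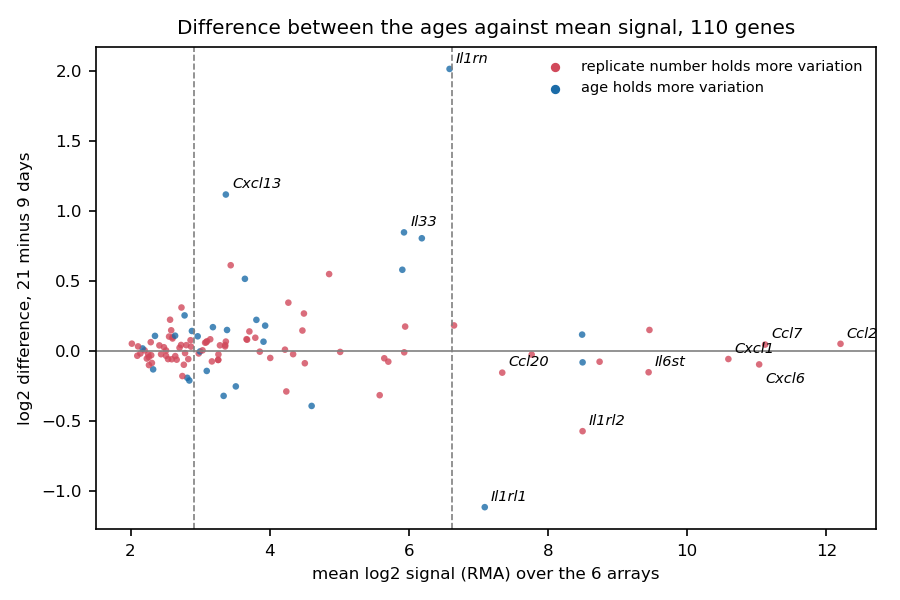
Log2 difference between the ages against the mean log2 signal over the 6 arrays for the 110 genes; red points are genes whose variation is held more by replicate number than by age, blue points the others, and dashed lines mark the quartiles of all gene means (2.91 and 6.62). Ccl2, Ccl7, Cxcl1 and Cxcl6 lie at the right near a difference of 0, and 44 genes lie left of the lower quartile.

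Low signals were common in these families. Of the 110 genes, 44 (40.0%) had a mean below the lower quartile of all gene means, against 25% of all genes by construction, and 14 (12.7%) lay above the upper quartile. For 26 of the 110 genes (23.6%) at least 3 arrays carried the same value to 5 decimals, as did 17.1% of all genes. Il2rb, a chain of the interleukin-2 receptor, was named after its values were seen: it carried 1 value in all 6 arrays. Such repeated values bear little information on age.

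Replicate number held more of the variation than age for 82 of the 110 genes (74.5%), against a background of 80.9%. Number has 3 levels and age 2, so number would hold the larger share in most genes even without an effect of either. These shares alone do not show that number outweighs age. The median share was 45.1% for number and 14.2% for age among the 110, and 51.7% and 10.9% among all genes. Every older array exceeded the younger one of its number for 18 of the 110 (16.4%), against a background of 10.7%, and lay below it for 15 (13.6%), against 14.4%.

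The genes through which these cytokines signal were split in direction when differences of any size were counted. Of 50 measured kinases, adaptors, factors and feedback inhibitors, 27 were higher and 23 lower in the older arrays, and the median difference was 0.018. In limma 0 passed the adjusted threshold, and at an unadjusted p under 0.05 there were 0 (background 2.97%), or 7 (14%) with the block (background 7.73%). Of these 7, 6 were higher (background 3.29%) and 1 lower (background 4.45%). Every older array exceeded the younger one of its number for 10 of the 50 (20%, background 10.7%) and lay below it for 2 (4%, background 14.4%). Socs2, an inhibitor of cytokine and growth hormone signals, differed by 0.86 ± 0.55 (SE), with a highest value of 5.87 in older replicate 3, whose removal left a difference of 0.32. Differences were 0.48 ± 0.27 for Rgs2, which curbs G protein signals, 0.42 ± 0.37 for Casp1, the protease that matures interleukin-1 beta, and -0.41 ± 0.17 for Arrb1, which uncouples chemokine receptors. Casp1 differed by 0.13 without 21-day-old replicate 1, Rgs2 by 0.30 without 9-day-old replicate 3 and Arrb1 by -0.25 without 21-day-old replicate 3.

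Cytokines and receptors of neighbouring families had no common direction, with 21 higher and 21 lower of 42 measured, a median difference of -0.0033 and 0 past the adjusted threshold. At an unadjusted p under 0.05 limma counted 1 (2.38%, background 2.97%), or 4 (9.52%) with the block (background 7.73%), both near the background. Cx3cl1, a membrane-bound chemokine, differed by 0.80 ± 0.41 (SE), or by 0.33 without 21-day-old replicate 3. Lif, which acts through gp130, had signals of 7.56, 8.41 and 7.32 (younger) and 8.17, 8.84 and 8.29 (older), a difference of 0.67 ± 0.33 with all 3 pairs higher. Csf3, the granulocyte growth factor, differed by 0.31 ± 0.73 and Ackr3, a scavenging chemokine receptor, by 0.30 ± 0.76. Both signs turned when single arrays were left out, down to -0.31 for Csf3 without 21-day-old replicate 2 and to -0.41 for Ackr3 without 21-day-old replicate 1. Leaving out 1 array breaks a pair, and within pairs Csf3 was higher throughout, by 0.43, 0.30 and 0.20, with an SE of 0.079 with the block. Csf3 was highest in the arrays numbered 2 at both ages, as were Il6 and Cxcl2.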

How the data were processed

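The authors deposited log2 values of 29214 probe sets on 6 arrays, summarised by RMA, as the submitters' processing notes record (per the labels). For the version of RMA and the array's build the entry is "not given in the sources used here". Detection calls, slides and scan dates were not used, so no batch was tested. The platform annotation names 15310 probe sets with 1 gene, 323 with several and leaves 13581 unnamed. The probe set with the highest mean was kept per gene, which left 14506 genes; each of the 110 genes reported had 1 probe set and was matched in RefSeq (GRCr8) with its symbol kept.

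Ages were compared as 21 minus 9 days with lmFit and eBayes in limma 3.58.1 (R 4.3.3), without covariates or filter, with Benjamini-Hochberg adjustment over all genes at 0.05. The code was tested on simulated data. SE are those of limma. The titles number the arrays but explain no number. Deviations of same-numbered arrays from their age means correlated at 0.439, 0.549 and 0.673 across genes, each above the limit of 0.1, so the numbers were taken as pairs and the block was fitted beside the unpaired test. Shares of variation are sums of squares of age, number and remainder, not divided by their degrees of freedom, which favours number over age. Precision is limited by how few arrays there are: the median SE over all genes was 0.112.

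The members, lists and rules were chosen with earlier results of these data known. Genes named are those with the 8 largest positive and 8 largest negative log2 differences, those without overlap, the 8 of highest mean, a fixed set of well-known members, and the 4 largest differences of each pathway list; other genes are said to be named after their values were seen. Of the marker lists, levels of whole lists are given, with Amh, Fshr, Wt1, Gata4, Cd14 and Fcgr1a named after their values were seen. Of the fixed set Il15ra was not analysed here. Fibroblast, endothelial, Leydig and germ cell markers were measured too: 2 of 9, 5 of 8, 4 of 6 and 8 of 10 were higher at 21 days, with 0 past the threshold. List means over the arrays ran from 3.47 to 3.92 for endothelial, 4.13 to 4.33 for Leydig and 3.09 to 3.60 for germ cell markers. Alternatives were the replicate block, filters on low means, the mean over probe sets, other scalings, trend and robust settings, and arrays left out. Plots were made in matplotlib 3.10.9 (Python 3.11.15).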

Additional observations from a re-analysis of the deposited data

How the results depend on the processing

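The counts of genes past the adjusted threshold stayed at 0 under all 15 alternatives, over all genes and over the 110, and the lowest limma adjusted p of a named gene under any of them was 0.33. The 11 members at an unadjusted p under 0.05 became 18 with the replicate number as a block and 5 with the 50% of genes of highest mean kept, and 4 to 8 when single arrays were left out. The 9 members without overlap became 14 after quantile normalization, 5 and 2 with the 75% and 50% of genes of highest mean kept (fewer genes tested), 16 to 25 without single arrays and 32 without both arrays numbered 3, where fewer arrays make separation easier. The 3 members with a fold of at least 2 became 2 to 5 without single arrays. Apart from the 18 with the block, the share over all genes under each alternative is not given, so these counts cannot be read as results about the 110. The median difference of the 110, 0.024, moved throughout by less than 0.046, the SD between replicates of the median signal of the 110. That limit is larger than the difference itself, so it does not show a stable sign. The sign turned after subtraction of array medians (-0.0016) and over the 50% of genes of highest mean (-0.0063).

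Of 47 named members 32 kept their sign under all alternatives. The other 15 had differences of at most 0.19 in size. Without single arrays they ranged from -0.85 to 0.34 (Ccl20), -0.072 to 0.026 (Ccr2), -0.22 to 0.20 (Cxcl1), -0.20 to 0.18 (Cxcl10), -0.11 to 0.37 (Cxcl16), -0.59 to 1.11 (Cxcl2), -0.46 to 0.33 (Cxcl6), -0.014 to 0.033 (Cxcr2), -0.034 to 0.077 (Il10), -0.13 to 0.088 (Il11ra1), -0.031 to 0.034 (Il17ra), -0.27 to 0.11 (Il1rap), -0.30 to 0.24 (Il4r), -0.27 to 0.014 (Il6st) and -0.0050 to 0.021 (Il7). Csf3 ranged from -0.31 to 0.93 and Ackr3 from -0.41 to 0.97. Without both arrays numbered 3, with or without the replicate block, the sign turned for Cxcl16 (-0.092), Cxcl2 (-0.12), Cxcl6 (0.013), Il11ra1 (0.030), Il17ra (0.045) and Il4r (0.26). It turned for Cxcr2 (-0.018) and Il7 (-0.013) with array medians subtracted, and for Cxcr2 (-0.0038), Il17ra (0.029), Il4r (0.023) and Il7 (-0.0093) after quantile normalization. Leaving out 1 array breaks a pair in an unpaired comparison. Other causes were not tested. The difference of 36 of the 47 was over 1.5 times smaller, or turned, without a single array. The replicate block changed no call. Without detection calls, low signals limit what small differences show.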
